A study of Mus musculus with 9 samples.

Results

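The 35 nuclear genes described here encode subunits of respiratory complex I, and were taken by symbol from the 18062 genes of an RNA sequencing table of mouse skeletal muscle. All 35 were in the table and all 35 passed the filter on low values (a mean of at least 0.5 RPKM over the 9 libraries), as did 11032 genes in all. They comprise 6 of the nuclear core subunits, which carry the chemistry of the complex, 28 accessory subunits that surround and stabilise the core, and Ndufa4, which was named as a subunit of complex I and was later placed in complex IV. The mitochondrially encoded core subunits were not among the members. Where core and other members are set apart below, Ndufa4 is counted with the accessory subunits, which makes 29.

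The tissue was white gastrocnemius, the portion of this calf muscle that consists mostly of fast fibres. There were 5 libraries from Gaa knock-out mice aged 5 months and 4 from wild-type mice, 2 of them at 5 months and 2 at 6 months. Gaa encodes the lysosomal enzyme acid alpha-glucosidase, which degrades glycogen, and its loss is the cause of Pompe disease. In the knock-out mice exon 6 of Gaa was disrupted by gene targeting, with loxP sites in the introns on either side, and both genotypes were described as of a mixed BL6/129j background, the colony being kept by mating brothers with sisters. The comparison asks how expression in the muscle differs between the genotypes. The names of the wild-type columns (wt1 to wt4) do not carry the age, so both ages form 1 group, and an effect of age in the 2 older wild-type libraries cannot be told apart from genotype.

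Complex I is the entry point of the mitochondrial respiratory chain. It oxidises NADH, passes the electrons through a chain of iron-sulphur clusters to ubiquinone and couples this to the pumping of protons across the inner mitochondrial membrane. The complex is shaped like an L. The N module at the tip of the matrix arm binds NADH, the Q module holds the ubiquinone site, and the membrane arm, with a proximal and a distal part, holds the proton pumps. Oxidative fibres hold more mitochondria than the fast glycolytic fibres that make up white muscle.

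Values are RPKM (mapped reads relative to transcript length and sequencing depth), summed per gene. Gaa itself was at 3.64, 3.40, 3.11, 3.51 and 3.55 RPKM in ko1 to ko5, against 56.0, 47.3, 48.2 and 46.0 RPKM in wt1 to wt4 (log2 fold change -3.80, SE 0.07, limma adjusted p = 1.8e-11; exact two-sided permutation p = 0.016, the smallest that doubling the one-sided p over 126 splits can give). All 9 libraries thus had the Gaa level that their genotype label calls for. From the spacing of low values, which move in steps of 1 read, the depth was estimated at 17600000 to 37600000 reads for the knock-out libraries and 37200000 to 64300000 reads for the wild type. At that depth the least abundant member value rested on an estimated 89.7 reads, and the median on 3810. Labels number the libraries without naming the animals behind them, so the p-values rest on variation among libraries that may be technical. The wild-type libraries fell into 2 pairs: the chi-square per gene was 4.59 between wt1 and wt2 and 4.13 between wt3 and wt4, but 14 to 15.9 across the pairs, where knock-out libraries differed by 3.12 to 6.92. Members whose call changed against either pair alone are named with the other differences between libraries. The fast fibre markers were abundant, with Tnnt3, fast troponin T, at 17000 RPKM on average in both genotypes, as the tissue label calls for.

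A gene is called higher or lower where its Benjamini-Hochberg adjusted p, over all 11032 genes, was below 0.05 in limma. As deposited, 17 of the 35 members were called higher in the knock-out, 0 were called lower and 18 were not called. At an unadjusted p under 0.05, limma had 1 member lower, the core subunit Ndufs1, and besides the 17 it had Ndufa9 and Ndufb5 higher; limma without trend also called 0 lower. Of all genes tested, 37% were called higher and 14.8% lower. The median log2 fold change of the members was 0.17, beside 0.12 over all genes tested. The scale of the libraries matters for changes of this size, because each library's summed RPKM was 349239 to 374056 for the knock-out, against 315337 to 327517 for the wild type. After each library was centred on its median log ratio, 11 members were called higher and 4 lower, where 25.1% and 24.9% of all genes were, and the members' median was 0.04. The 5 knock-out values lay above all 4 wild-type values for 14 members as deposited (30.9% of all genes) and below them for 0 members (11.4% of all genes). Of the members called higher, 13 had groups that did not overlap, while Ndufa5, Ndufs6, Ndufb8 and Ndufb2 were called with overlapping groups.

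**Figure D1:**
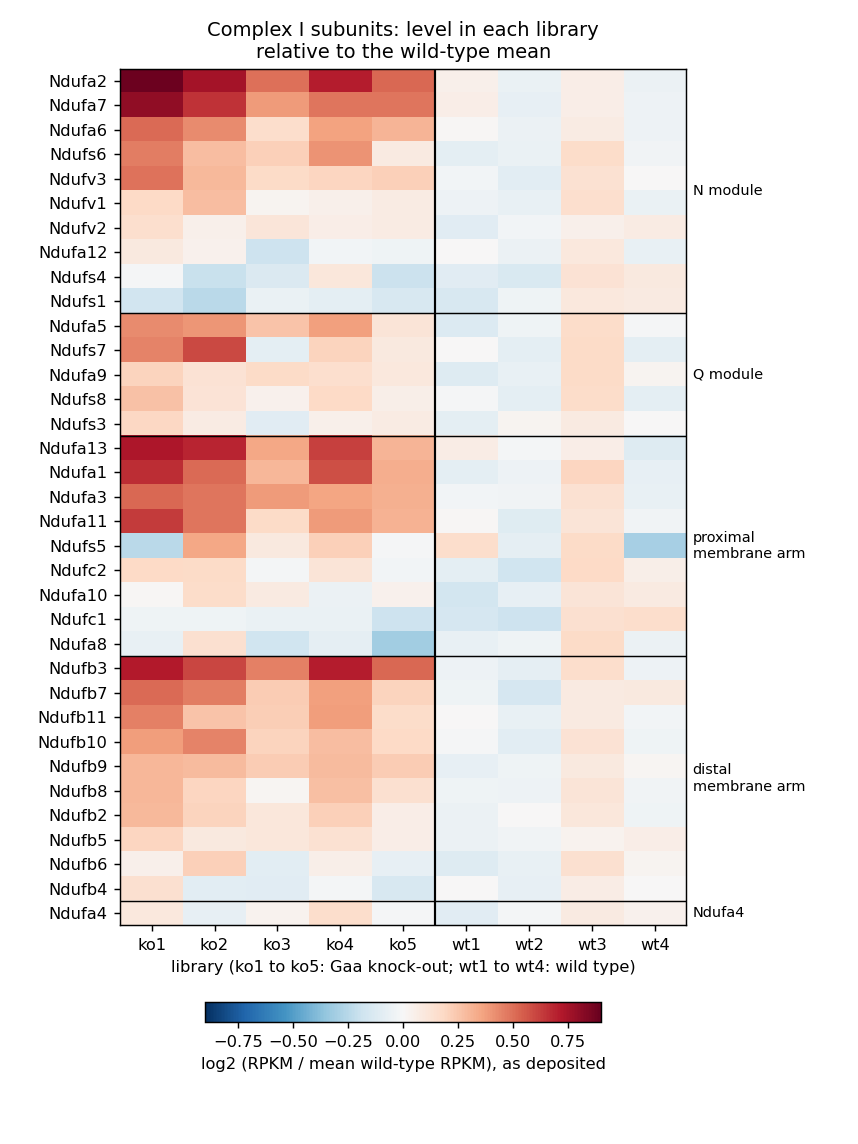
Level of each complex I subunit in every library, as the log2 ratio of its RPKM to the wild-type mean; rows are grouped by module and ordered by fold change within it, with the 5 knock-out libraries left of the 4 wild-type libraries. Red cells fill the upper rows of each module on the knock-out side, while Ndufs1, Ndufs4, Ndufc1 and Ndufa8 are pale or blue there; ko1 was the highest knock-out library for 25 members and wt3 the highest wild-type library for 30.

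Promoter stretches are shown for the 4 members with the smallest p that hold one of the motifs searched. The windows, from RefSeq on GRCm38.p6 (the table itself was made on mm9), run from 250 bases before to 50 bases after the start, and 32 of the 35 members had one, with none for Ndufa2, Ndufs1 and Ndufb9. Motif letters were searched on both strands: GCGCATGC for NRF1 (nuclear respiratory factor 1, an activator of respiratory chain genes), CCGGAAGT for ETS factors such as GABP, CAAGGTCA for oestrogen-related receptors and AAGATGGC for YY1. Capitals mark the motif. In Ndufa6 the match reads on the opposite strand, and in Ndufa11 a match on each strand overlaps the other. Ndufa3 lies at chr7:3617384-3617413 on the plus strand, bases 12 to 41 after the start; Ndufs6 at chr13:73328433-73328462 on the minus strand, bases 21 to 50 after the start; Ndufa6 at chr15:82354292-82354541 on the minus strand and Ndufa11 at chr17:56717512-56717761 on the plus strand, both the 250 bases before the start.
Ndufa3: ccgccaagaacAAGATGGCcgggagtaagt
Ndufs6: aagggtcaccggcAAGATGGCggcggtgct
Ndufa6: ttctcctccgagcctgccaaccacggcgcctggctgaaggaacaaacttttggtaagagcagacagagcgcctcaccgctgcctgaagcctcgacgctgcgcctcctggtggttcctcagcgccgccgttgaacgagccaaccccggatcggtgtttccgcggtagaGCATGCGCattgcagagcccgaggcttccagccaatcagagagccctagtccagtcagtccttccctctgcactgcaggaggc
Ndufa11: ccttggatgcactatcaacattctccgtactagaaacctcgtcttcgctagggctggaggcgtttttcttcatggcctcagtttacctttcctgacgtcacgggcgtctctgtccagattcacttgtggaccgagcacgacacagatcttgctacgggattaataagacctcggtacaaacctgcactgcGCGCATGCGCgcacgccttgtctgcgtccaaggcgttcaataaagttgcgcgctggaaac

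The YY1 letters were found in 7 of the 32 member promoters (21.9%), beside 4.96% of the 7878 promoters of tested genes and 2.75% of all 32851 promoters. The 7 were Ndufa3, Ndufs6, Ndufs7, Ndufb8, Ndufa9, Ndufs4 and Ndufc1, and in each the first base lay 23 to 39 bases after the start. The letters hold an ATG, and whether it is the start codon was not examined. These 7 members had log2 fold changes as deposited on both sides of 0, with Ndufa3 at 0.41 and Ndufs4 at -0.08. The NRF1 letters were found in Ndufa6, Ndufa11 and Ndufa8 (9.38%, against 5.8% of tested and 2.71% of all promoters), the ETS letters in Ndufs3 (3.12%, against 8.66% and 3.89%) and the oestrogen-related receptor letters in Ndufs5 (3.12%, against 1.08% and 1.56%). A match is a description of the letters in these windows, not a bound site.

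In the N module, 5 of 10 members were called higher and 0 lower as deposited, with 3 higher and 2 lower after centring. Of all genes, 37% were called higher and 14.8% lower as deposited, and 25.1% and 24.9% after centring. These shares apply to the other modules as well. Ndufa2, an accessory subunit with a thioredoxin-like fold, had the largest fold change of all members. It was at 271, 247, 207, 240 and 210 RPKM in ko1 to ko5, against 152, 141, 153 and 142 RPKM in wt1 to wt4. The knock-out mean of 235 ± 26.9 RPKM was 1.60 times the wild-type mean of 147 ± 6.16 RPKM (SD, n = 5 and 4; log2 fold change 0.67, SE 0.08, adjusted p = 3.2e-05), and the groups did not overlap. Ndufa7, another small accessory subunit, had 137, 124, 103, 110 and 110 RPKM in the knock-out libraries, against 82.1, 74.9, 82.1 and 76.3 RPKM in the wild type. Its groups were also apart, at 117 ± 13.5 RPKM in the knock-out and 78.9 ± 3.79 RPKM in the wild type (log2 fold change 0.56, SE 0.08, adjusted p = 1.2e-04). Both genes stayed called higher after centring, with log2 fold changes of 0.54 and 0.43.

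The other N module members called higher as deposited were smaller changes. Ndufa6, an LYR-motif subunit that binds the mitochondrial acyl carrier protein, averaged 202 ± 18.4 RPKM in the knock-out and 158 ± 6.56 RPKM in the wild type, and stayed called after centring (0.36 as deposited, 0.23 centred). Ndufs6, a zinc-binding subunit added late in assembly, averaged 82.4 RPKM in the knock-out and 67.1 RPKM in the wild type, with ko5 at 71.0 RPKM below wt3 at 75.2 RPKM. Its log2 fold change was 0.29 for the sum of its 2 transcript lines and 0.55 (adjusted p = 4.4e-04) for the more abundant line alone. Ndufv3 averaged 136 RPKM in the knock-out and 112 RPKM in the wild type (log2 fold change 0.27). Neither Ndufs6 nor Ndufv3 was called after centring, and both had log2 fold changes below 0 (-0.03 and -0.07) once the trend with transcript length was removed.

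The 3 core subunits of the N module were not called as deposited. Ndufv1, which holds the flavin that accepts electrons from NADH, was at 145, 155, 130, 132 and 135 RPKM in ko1 to ko5, against 124, 122, 142 and 123 RPKM in wt1 to wt4 (log2 fold change 0.13, SE 0.07, adjusted p = 0.14). Every knock-out value lay above wt1, wt2 and wt4, and wt3 lay among the knock-out values. Without wt3 it was called higher (log2 fold change 0.18, adjusted p = 0.045). Ndufv2, an iron-sulphur protein beside it, had 130, 121, 126, 122 and 123 RPKM in the knock-out, against 109, 115, 121 and 123 RPKM in the wild type (log2 fold change 0.09, SE 0.05, adjusted p = 0.15), and -0.04 after centring. Its wild-type values were spread, with wt1 and wt2 below all knock-out libraries, wt3 level with the lowest of them and wt4 among them.

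Ndufs1, the largest core subunit, carries several of the iron-sulphur clusters and had the lowest log2 fold change of all members. It was at 104, 98.9, 112, 110 and 106 RPKM in ko1 to ko5, against 106, 114, 125 and 124 RPKM in wt1 to wt4, and the groups overlapped only through wt1. The mean was 106 ± 5.09 RPKM in the knock-out and 117 ± 9.25 RPKM in the wild type (log2 fold change -0.14, SE 0.06, adjusted p = 0.069). After centring its log2 fold change was -0.27 (adjusted p = 0.0034) and all knock-out values lay below all wild-type values. On the values as deposited it was called lower without wt1 (-0.19, adjusted p = 0.02) and against wt3 and wt4 alone (-0.24, adjusted p = 0.016), but against wt1 and wt2 alone its log2 fold change was -0.05 (adjusted p = 0.55).

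Of the remaining N module subunits, Ndufs4 is an accessory subunit whose loss causes a Leigh-like encephalopathy in mice. It had 63.0, 55.2, 58.0, 68.2 and 55.4 RPKM in the knock-out, against 59.1, 57.7, 69.3 and 67.3 RPKM in the wild type (log2 fold change -0.08, SE 0.08, adjusted p = 0.42). Its groups overlapped throughout as deposited, and after centring it was called lower (-0.21, adjusted p = 0.044). Ndufa12 was at 121, 117, 100, 112 and 111 RPKM in the knock-out, against 114, 110, 122 and 109 RPKM in the wild type. The means were level within the spread as deposited (log2 fold change -0.02, SE 0.06, adjusted p = 0.81). Ndufa12 was called lower with an equal RPKM total per library (-0.18, adjusted p = 0.017). It was also lower with quantile normalization (-0.24, adjusted p = 0.0018) and with the length trend removed (-0.34, adjusted p = 7.8e-05). However, 53.8% of the 50-base windows of its transcript also occur in other genes, so reads could have been assigned elsewhere.

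The Q module had 1 of 5 members called higher as deposited and 0 in either direction after centring. Its 3 core subunits were not called. Ndufs3 was at 133, 123, 109, 121 and 123 RPKM in ko1 to ko5, against 110, 119, 124 and 117 RPKM in wt1 to wt4 (log2 fold change 0.05, SE 0.06, adjusted p = 0.52; -0.08 after centring). Its groups overlapped, and 35.8% of its windows are shared with other genes. Ndufs7, which holds the last iron-sulphur cluster before ubiquinone, was the most variable core subunit, at 226, 250, 156, 191 and 176 RPKM in the knock-out, against 166, 156, 187 and 156 RPKM in the wild type. Only ko1, ko2 and ko4 lay above all wild-type values (log2 fold change 0.25, SE 0.12, adjusted p = 0.11), and without ko3 it was called higher (0.33, adjusted p = 0.026).

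Ndufs8, another iron-sulphur protein, had 70.4, 63.7, 60.0, 66.4 and 60.6 RPKM in the knock-out, against 58.0, 55.1, 65.6 and 55.1 RPKM in the wild type (log2 fold change 0.14, SE 0.07, adjusted p = 0.11). As with Ndufv1, the overlap came from wt3 alone, and without wt3 it was called higher (0.19, adjusted p = 0.028). Ndufa9, an accessory subunit at the junction of the arms, averaged 129 RPKM in the knock-out and 116 RPKM in the wild type (log2 fold change 0.15, adjusted p = 0.059) and was likewise called without wt3 (0.21, adjusted p = 0.0093). Ndufa5 was the 1 member of the module called higher (153 ± 13.3 RPKM in the knock-out, 123 ± 10.6 RPKM in the wild type; log2 fold change 0.31, adjusted p = 0.005), and it was not called after centring (0.19).

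In the proximal membrane arm 4 of 9 members were called higher, and the same 4 stayed called after centring, when 2 others were called lower. Ndufa13, also known as GRIM-19, is an accessory subunit with a membrane-spanning helix. It was at 138, 134, 106, 128 and 103 RPKM in ko1 to ko5, against 87.2, 82.4, 87.1 and 76.8 RPKM in wt1 to wt4 (log2 fold change 0.54, SE 0.09, adjusted p = 4.6e-04). Ndufa1, a small membrane subunit, had 126, 113, 97.6, 119 and 99.6 RPKM in the knock-out, against 74.8, 77.1, 90.8 and 75.4 RPKM in the wild type (log2 fold change 0.48, SE 0.09, adjusted p = 7.3e-04). Ndufa3, also small, had 247, 241, 226, 221 and 216 RPKM in the knock-out, against 170, 169, 190 and 165 RPKM in the wild type (log2 fold change 0.41, SE 0.06, adjusted p = 1.6e-04). None of the 3 had overlapping groups, and ko1 was the highest library for each. Ndufa11, a less abundant subunit of this arm, averaged 22.3 ± 2.72 RPKM in the knock-out and 16.9 ± 1.09 RPKM in the wild type (log2 fold change 0.40). With quantile normalization Ndufa3 was at 0.08 and no longer called.

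The other 5 members of the proximal arm were not called as deposited. Ndufa8, a subunit with twin cysteine motifs in the intermembrane space, had 107, 124, 98.7, 106 and 90.2 RPKM in the knock-out, against 107, 109, 126 and 108 RPKM in the wild type (log2 fold change -0.10, SE 0.09, adjusted p = 0.34). Ndufc1, the member with the shortest transcript, had 120, 120, 118, 118 and 108 RPKM in the knock-out, against 111, 108, 136 and 137 RPKM in the wild type (log2 fold change -0.07, SE 0.08, adjusted p = 0.50). Both were called lower after centring (-0.23, adjusted p = 0.031, and -0.19, adjusted p = 0.036). For Ndufc1, wt1 and wt2 lay at the lower end of the knock-out values and wt3 and wt4 above all of them: set against wt3 and wt4 alone it was called lower (-0.22, adjusted p = 0.019), and set against wt1 and wt2 alone its log2 fold change was 0.09 (adjusted p = 0.28).

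Ndufc2, its neighbour in the arm, had 77.6, 77.2, 67.8, 74.3 and 67.2 RPKM in the knock-out, against 64.6, 60.5, 77.7 and 71.2 RPKM in the wild type (log2 fold change 0.09, SE 0.08, adjusted p = 0.35). Ndufa10, related to nucleoside kinases, had 106, 118, 111, 101 and 108 RPKM in the knock-out, against 93.6, 100, 114 and 111 RPKM in the wild type (log2 fold change 0.06, SE 0.07, adjusted p = 0.48). For both, wt1 and wt2 lay below every knock-out value and wt3 and wt4 among or above them. Ndufs5 had by far the lowest level, at 7.72, 11.6, 9.71, 10.6 and 9.04 RPKM in the knock-out, against 10.2, 8.63, 10.3 and 7.40 RPKM in the wild type (log2 fold change 0.09, SE 0.12, adjusted p = 0.56). A share of 41.2% of its windows occurs in other genes, so its level depends on how the authors assigned such reads. After centring these 3 had log2 fold changes of -0.04, -0.07 and -0.03.

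The distal membrane arm, the part furthest from the matrix arm, had 7 of 10 members called higher as deposited and 4 after centring, with 0 lower in either. Ndufb3, a small subunit with one membrane helix, stood out in it. It was at 100, 92.5, 83.3, 99.5 and 87.1 RPKM in ko1 to ko5, against 59.1, 57.7, 67.8 and 59.1 RPKM in wt1 to wt4. The lowest knock-out library was well above wt3, the highest of the wild type (log2 fold change 0.60, SE 0.07, adjusted p = 3.0e-05; 0.47 after centring). Ndufb9, an LYR-motif subunit, was the most abundant member in the knock-out, at 394 ± 9.15 RPKM in the knock-out and 328 ± 16.0 RPKM in the wild type (log2 fold change 0.27, adjusted p = 8.9e-04; 0.14 after centring). Ndufb7 and Ndufb10, both with cysteine motifs in the intermembrane space, averaged 158 and 233 RPKM in the knock-out, against 123 and 189 RPKM in the wild type. These 4 stayed called higher after centring.

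Ndufb11, Ndufb8 and Ndufb2 were called higher as deposited and not after centring. Ndufb11 averaged 192 RPKM in the knock-out and 156 RPKM in the wild type (log2 fold change 0.30). Ndufb8, whose protein is often used as a gauge of assembled complex I, averaged 255 RPKM in the knock-out and 224 RPKM in the wild type (log2 fold change 0.19, adjusted p = 0.032). Ndufb2 averaged 127 RPKM in the knock-out and 112 RPKM in the wild type (log2 fold change 0.17, adjusted p = 0.029). Both calls were near the threshold: leaving out any 1 of ko1, ko2, ko4, wt1, wt2 and wt4 ended them, with adjusted p from 0.051 to 0.082. Ndufb8 was called lower with quantile normalization (-0.13) and Ndufb2 once the length trend was removed (-0.17).

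The last 3 members of the distal arm were not called as deposited. Ndufb5 had 160, 149, 150, 154 and 146 RPKM in the knock-out, against 135, 137, 143 and 146 RPKM in the wild type, the lowest knock-out value being just above the highest wild-type value before rounding (log2 fold change 0.12, SE 0.05, adjusted p = 0.061; -0.01 after centring). Ndufb6 had 88.2, 99.1, 80.0, 88.8 and 81.1 RPKM in the knock-out, against 78.9, 81.7, 94.5 and 87.0 RPKM in the wild type (log2 fold change 0.03, SE 0.07, adjusted p = 0.74; -0.10 after centring). Ndufb4 had 160, 136, 135, 143 and 131 RPKM in the knock-out, against 145, 138, 152 and 145 RPKM in the wild type (log2 fold change -0.04, SE 0.06, adjusted p = 0.59). The groups of Ndufb6 and Ndufb4 overlapped across most of their range. Ndufb4 was called lower with an equal RPKM total per library (-0.20, adjusted p = 0.012). It was also lower with quantile normalization (-0.30, adjusted p = 6.0e-04) and with the length trend removed (-0.31, adjusted p = 4.8e-04). Ndufa4, outside the modules, was abundant in both groups, at 370, 330, 355, 388 and 344 RPKM in the knock-out, against 323, 342, 367 and 357 RPKM in the wild type (log2 fold change 0.04, SE 0.06, adjusted p = 0.60; -0.09 after centring).

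**Figure D2:**
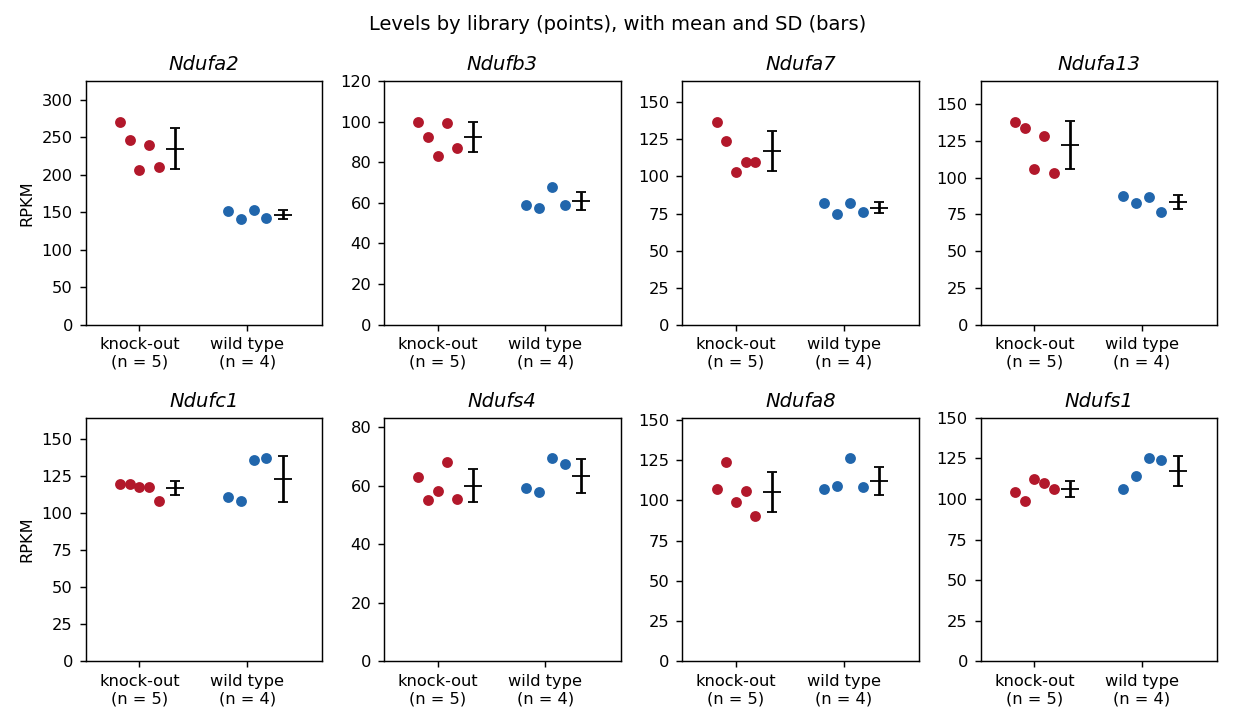
RPKM of 8 members in each library, from 0, with points for libraries and bars for the mean and SD of 5 knock-out (left) and 4 wild-type (right) libraries. The upper 4 members were called higher under all 5 scalings, and their knock-out points lie clear of the wild type; the lower 4 were called lower under the 4 alternative scalings and not as deposited, where their points overlap.

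How many members counted as changed, and in which direction, depended on the scaling. The 5 scalings were the values as deposited, centring, an equal RPKM total per library, quantile normalization and removal of each library's trend with transcript length. Members called higher numbered 17, 11, 9, 6 and 4 in that order, and those called lower 0, 4, 6, 10 and 12. Of all genes tested, 4081, 2765, 2432, 2644 and 2694 were called higher in the same order, and 1632, 2742, 2814, 3056 and 2625 lower. These were 11032 genes, or 10875 with the length trend removed. The median log2 fold change of the members was 0.17, 0.04, 0.01, -0.04 and -0.08. Ndufa2, Ndufb3, Ndufa7 and Ndufa13 were called higher under all 5. Ndufc1, Ndufs4, Ndufa8 and Ndufs1 were called lower under all 4 alternatives and uncalled as deposited. The log2 fold change was above 0 under all 5 for 10 members, these first 4 with Ndufa1, Ndufa3, Ndufa11, Ndufb7, Ndufa6 and Ndufa5. Centring turned the sign of 8 members, Ndufb5, Ndufv2, Ndufs5, Ndufc2, Ndufa10, Ndufs3, Ndufa4 and Ndufb6, none of which was called before or after centring. Other scalings did call some of them lower. Ndufb5, Ndufs3 and Ndufb6 were lower with quantile normalization and with the length trend removed, and Ndufc2 and Ndufa4 with the length trend removed alone.

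**Figure D3:**
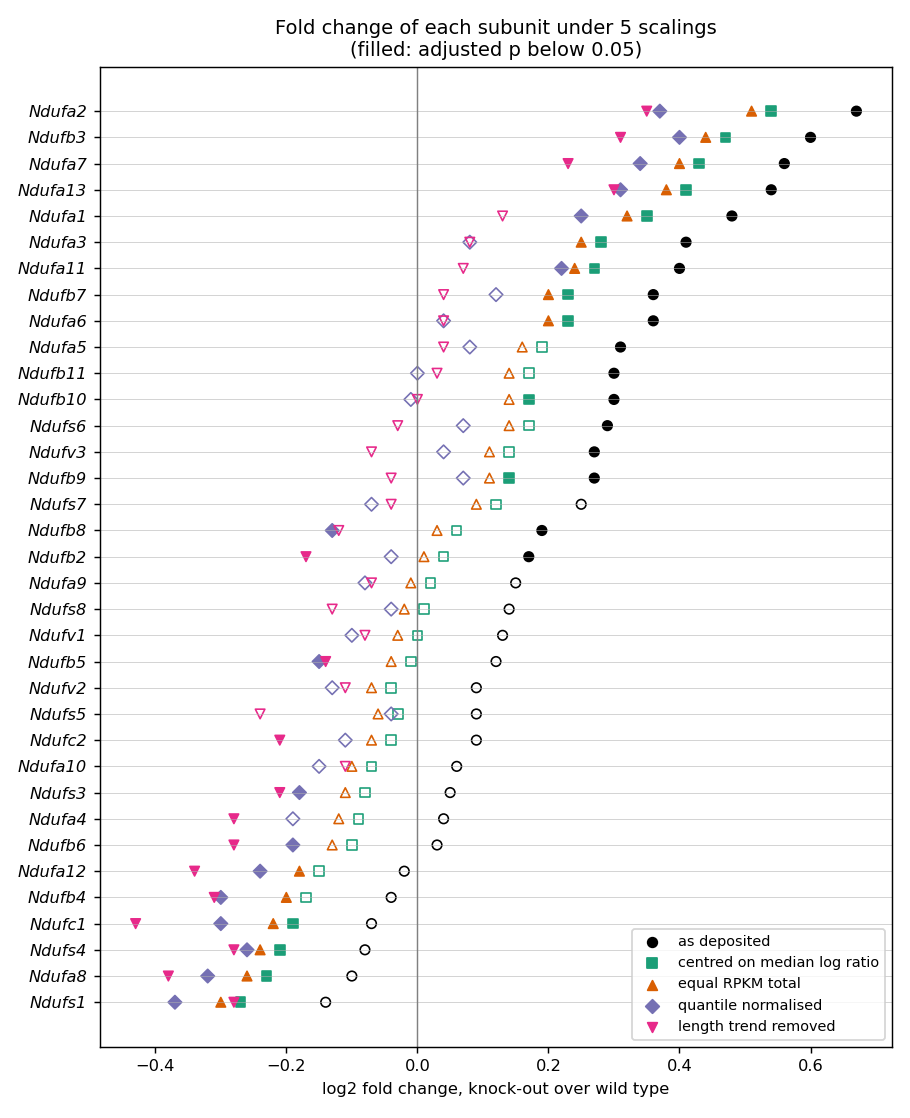
Log2 fold change (knock-out over wild type) of the 35 members under 5 scalings, ordered by the values as deposited; filled symbols have an adjusted p below 0.05. The top 4 members are filled and right of 0 in every scaling, while the members' median is 0.17 as deposited and -0.08 with the length trend removed.

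Ratios between members of the same library do not depend on its scale. Ndufa2 over Ndufs1, the members with the highest and the lowest fold change, was 2.61, 2.50, 1.85, 2.19 and 1.98 in ko1 to ko5, against 1.43, 1.23, 1.22 and 1.14 in wt1 to wt4. Ndufb3 over Ndufb6, both subunits of the distal arm, averaged 1.06 ± 0.0806 across knock-out libraries, against 0.713 ± 0.0289 for the wild type. Ndufa2 over Ndufv1, both of the N module, averaged 1.68 ± 0.146 across knock-out libraries, against 1.15 ± 0.0602 for the wild type. These pairs were chosen for their fold changes, which fixed the direction of the ratios, and they carry no test. The transcripts of Ndufa2 and Ndufs1 are also of unequal length, at 572 and 2661 bases, while those of Ndufb3 and Ndufb6 have 763 and 659 bases.

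Members with short transcripts made up most of the calls. Transcripts of the 35 ran from 315 to 2661 bases with a median of 704, and 26 were at most 1000 bases long. Of these 26, 16 were called higher and 0 lower, where 57.1% and 8.15% of all 773 tested genes of that length were. After centring 10 of the 26 were called higher and 2 lower, where 42.8% and 12.4% of the genes of that length were. Of the 9 members with longer transcripts, Ndufa13 alone was called higher. Lengths are those of the more abundant transcript line; Ndufv3, called higher and counted as short at 493 bases, also has a transcript of 1582 bases, which was used for its shared windows and would place it among the longer ones. Across the 35 members, log2 fold change as deposited and log2 length had a Pearson r of -0.36 and a Spearman rho of -0.35, and across 10875 tested genes -0.17 and -0.23. These are descriptions across genes of the same libraries. With the length trend removed, 4 members were called higher and 12 lower, where 24.8% and 24.1% of all genes were.

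The core subunits have longer transcripts than most accessory ones, with a median of 1353 against 659 bases. As deposited, 0 of the 6 core subunits were called higher and 0 lower, and 17 and 0 of the 29 others, where 37% and 14.8% of all genes were. After centring the counts higher and lower were 0 and 1 for the core and 11 and 3 for the others, and with the length trend removed 0 and 2 for the core and 4 and 10 for the others. Whether the core and the other members differ apart from length was not tested.

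**Figure D4:**
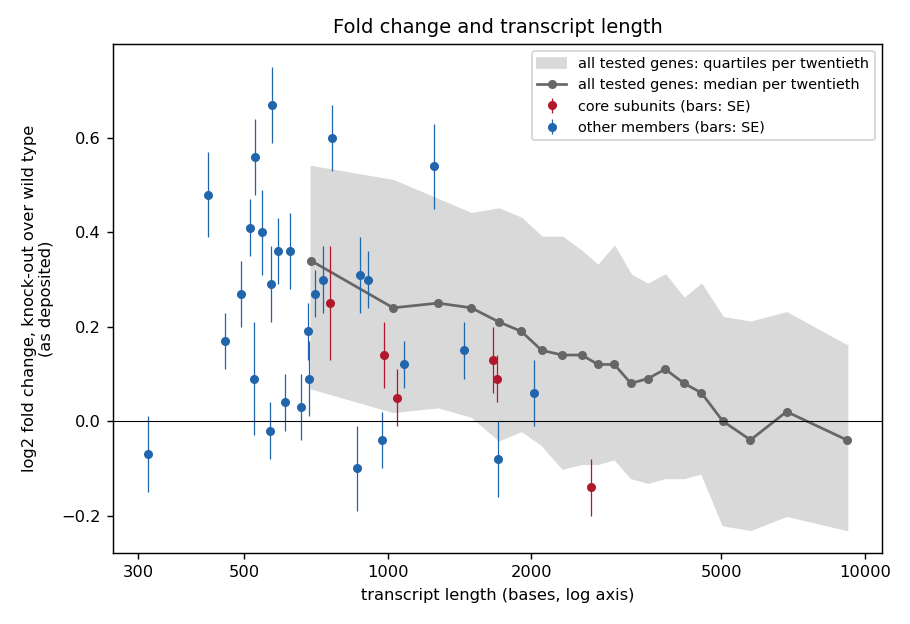
Log2 fold change as deposited (knock-out over wild type) against transcript length (log axis), with core subunits in red, other members in blue and bars for the SE; the grey line and band are the median and quartiles of all tested genes in 20 bins of length. The grey line falls from left to right, and most members lie at the short end, where the median of all genes of at most 1000 bases was 0.31 and that of the 26 members 0.27.

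The libraries of each genotype also differed among themselves. The summed level of the 35 members was 5460, 5240, 4750, 5140 and 4750 RPKM in ko1 to ko5, against 4210, 4190, 4710 and 4350 RPKM in wt1 to wt4. As a share of the total RPKM this was 1.46%, 1.41%, 1.35%, 1.43% and 1.36% in ko1 to ko5, against 1.29%, 1.28%, 1.44% and 1.38% in wt1 to wt4, so that the shares of the groups overlapped. The library wt3 had the highest wild-type value for 30 of the 35 members, and ko1 the highest knock-out value for 25. The lowest knock-out value came from ko3 for 15 members and from ko5 for 14. Set against wt1 and wt2 alone, 19 members were called higher and 0 lower, with a median log2 fold change of 0.23. Against wt3 and wt4 alone, 12 were called higher and 2 lower, with a median of 0.14. Of the 11032 genes tested, 4064 were called higher and 1321 lower in the first comparison, and 3159 and 1494 in the second. Against wt1 and wt2 alone, Ndufa9 and Ndufc2 were also called higher (adjusted p = 0.0072 and 0.041). Against wt3 and wt4 alone, Ndufv3, Ndufs6, Ndufa5, Ndufb2 and Ndufb8 lost their calls (adjusted p = 0.099, 0.11, 0.062, 0.17 and 0.2), and Ndufs1 and Ndufc1 were called lower.

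Overlapping genes limit some of these values, since the strand used in counting is not given in the sources used here. On the reference annotation, exons of another gene on the opposite strand overlap Ndufa2 (Tmco6), Ndufa3 (Tfpt), Ndufa13 (Tssk6), Ndufa11 (Vmac), Ndufb11 (Rbm10) and Ndufs6 (Mrpl36). They also overlap Ndufb5 (Mrpl47), Ndufb6 (Smim27), Ndufs3 (Kbtbd4), Ndufb2 (Braf and Gm16272), Ndufa9 (1700018A23Rik) and Ndufs1 (Eef1b2 and Ino80dos). Exons of another gene on the same strand overlap Ndufb2 (Gm42420), Ndufb9 (Gm49356) and Ndufb8 (Gm20538). Besides Ndufa12, Ndufs5 and Ndufs3, more than 10% of the 50-base windows were shared with other genes for Ndufb4 (37.0%), Ndufb2 (24.4%), Ndufb9 (23.4%), Ndufs6 (14.6%) and Ndufb8 (13.5%), and 21 members shared none.

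The other complexes of the respiratory chain were counted in the same fit. Of all genes, 37% were called higher and 14.8% lower as deposited, and 25.1% and 24.9% after centring. Of genes with transcripts of at most 1000 bases, 57.1% were called higher and 8.15% lower as deposited, with a median log2 fold change of 0.31. After centring these shares were 42.8% and 12.4%. Transcripts of the complex IV genes ran from 360 to 1001 bases. The shares over all genes apply to the lists below as well, and those for short transcripts only to genes of that length. Genes of complex II, the biogenesis regulators and the mitochondrial mass list all have transcripts longer than 1000 bases. Of the complex IV subunits 10 of 12 were called higher and 0 lower, with a median log2 fold change of 0.30; those with the smallest p were Cox8a (29.3 ± 1.71 RPKM in the knock-out, 20.0 ± 2.59 RPKM in the wild type) and Cox5b (240 ± 15.0 and 186 ± 11.7 RPKM). Of the ATP synthase subunits 9 of 15 were called higher and 0 lower, with a median of 0.17, the value found for complex I; Atp5g2 and Atp5k, a ring subunit and a small membrane subunit, had the smallest p (log2 fold changes 0.51 and 0.56). Complex III had 4 of 9 higher and 0 lower (median 0.08), led by the small subunits Uqcrh (0.44) and Uqcr11 (0.53). In complex II, Sdhd was called higher (0.17) and Sdha, the flavoprotein, lower (-0.16) of 4 members. After centring, the counts higher and lower were 6 and 0 for complex IV, 4 and 2 for ATP synthase, 2 and 2 for complex III and 0 and 1 for complex II, beside 11 and 4 for complex I. With an equal RPKM total per library the counts were 6 and 0 for complex IV, 4 and 3 for ATP synthase, 2 and 2 for complex III and 0 and 1 for complex II. Quantile normalization and removal of the length trend moved the balance further down. With quantile normalization the counts were 1 and 1 for complex IV, 2 and 6 for ATP synthase, 1 and 5 for complex III and 0 and 2 for complex II. With the length trend removed they were 1 and 2 for complex IV, 2 and 6 for ATP synthase, 1 and 4 for complex III and 0 and 2 for complex II.

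Assembly factors of complex I, which are not part of the finished complex, went both ways. Of 20 tested, 6 were called higher and 3 lower as deposited, and 5 and 12 after centring, with a median of -0.06 as deposited. Ndufaf3 averaged 7.46 ± 0.506 RPKM in the knock-out and 5.26 ± 0.393 RPKM in the wild type (log2 fold change 0.50, adjusted p = 1.4e-04). Tmem70, which also serves ATP synthase, and Lyrm2 were called higher too (0.33 and 0.46). Ndufaf5, whose human counterpart hydroxylates NDUFS7, averaged 6.32 ± 0.277 RPKM in the knock-out and 8.11 ± 0.560 RPKM in the wild type (log2 fold change -0.35, adjusted p = 6.2e-04). All 4 kept these calls after centring.

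Regulators of mitochondrial biogenesis had 1 of 14 genes called higher and 3 lower as deposited, and 0 and 7 after centring. With the length trend removed the counts were 0 and 6, where the 35 complex I members had 4 and 12. Transcripts of the regulators ran from 1402 to 6464 bases. Tfam, which packages and transcribes mitochondrial DNA, averaged 7.12 ± 0.517 RPKM in the knock-out and 9.09 ± 0.666 RPKM in the wild type (log2 fold change -0.35, adjusted p = 0.0016). Ppargc1a, the coactivator PGC-1alpha, averaged 4.68 ± 0.649 RPKM in the knock-out and 6.06 ± 0.262 RPKM in the wild type (-0.38, adjusted p = 0.0055). Yy1, whose motif was searched above, was lower (-0.18, adjusted p = 0.034), and Tfb1m, a methyltransferase of mitochondrial ribosomal RNA, was called higher (0.25, adjusted p = 0.049). Of 6 genes listed as gauges of mitochondrial mass, 1 was called higher and 2 lower, with the smallest p for Vdac3 (-0.39) and Hspd1 (-0.27), both lower; citrate synthase, Cs, averaged 167 ± 8.32 RPKM in knock-out libraries and 183 ± 14.2 RPKM in wild-type ones (log2 fold change -0.13, adjusted p = 0.10). After centring the mass list had 0 higher and 4 lower, and Cs was called lower (-0.26, adjusted p = 0.0018), as it was under the other 3 alternative scalings.

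**Figure D5:**
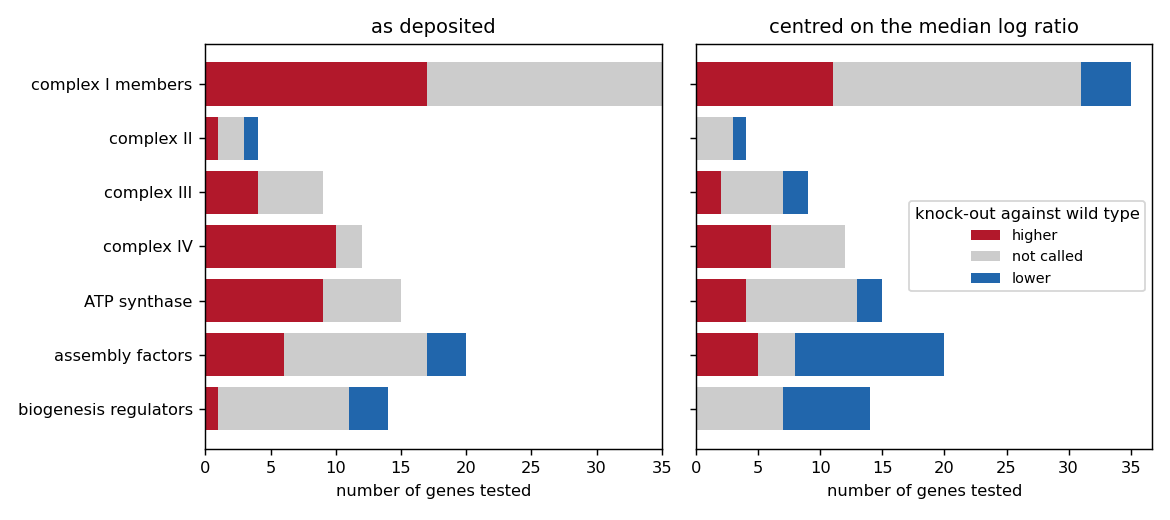
Number of genes called higher, not called and called lower in the knock-out for complex I, the other complexes, assembly factors and biogenesis regulators, as deposited (left) and after centring (right). Complex I has 17 higher and 0 lower on the left and 11 and 4 on the right. The biogenesis regulators, whose transcripts are longer, have 1 and 3 on the left and 0 and 7 on the right. With the length trend removed, which is not drawn, the counts were 4 and 12 of 35 complex I members and 0 and 6 of 14 regulators.

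Markers of other fibres and cells moved with genotype beside these results; in bulk muscle, fewer cells of a type and less RNA per cell cannot be told apart. Of 11 slow and oxidative fibre markers 10 were called higher and 0 lower, where 37% and 14.8% of all genes were. After centring 8 were called higher and 0 lower, where 25.1% and 24.9% of all genes were, and Myl3 and Csrp3 lost their calls. All knock-out values lay above all wild-type values for 4 of the 11 (30.9% of all genes). The summed level of the list was 1520, 1950, 1570, 1620 and 1910 RPKM in ko1 to ko5, against 1460, 937, 1380 and 1000 RPKM in wt1 to wt4. Much of this sum was Mb, myoglobin, the marker of the list that was not called, at 843 to 999 RPKM in the knock-out and 732 to 997 RPKM in the wild type. Those with the smallest p were Myoz2 (33.9 ± 5.48 RPKM in the knock-out, 16.2 ± 4.07 RPKM in the wild type) and Myh2 (364 ± 68.7 and 158 ± 48.2 RPKM). Of 9 fast fibre markers 1 was called higher and 0 lower. Their sums were 77500 to 89600 RPKM in the knock-out and 76000 to 82600 RPKM in the wild type. Mylpf and Tnni2 had the smallest p (log2 fold changes 0.26 and 0.24). Myh4, a fast myosin, averaged 11900 RPKM in the knock-out and 13800 RPKM in the wild type (-0.21, adjusted p = 0.082). After centring the fast list had 0 higher and 1 lower, which was Myh4 (-0.34, adjusted p = 0.02).

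Macrophage markers were called higher for 7 of 8 tested, as deposited and after centring, led by Cd68 and Mpeg1. Their sums over the 10 listed were 48.8 to 85.2 RPKM in the knock-out and 18.2 to 26.6 RPKM in the wild type. Of all genes, 37% were called higher and 14.8% lower as deposited, and 25.1% and 24.9% after centring. Endothelial markers were called lower for 5 of 8, led by Sox18 and Flt1. Their sums were 24.5, 43.7, 26.7, 28.4 and 28.7 RPKM in ko1 to ko5, against 34.7, 41.0, 56.8 and 53.3 RPKM in wt1 to wt4. The sum in ko2 thus lay above wt1 and wt2 and below wt3 and wt4. Adipocyte markers were called lower for 3 of 6, led by Lep and Cidec (sums of 181 to 289 RPKM in the knock-out, 192 to 318 RPKM in the wild type). Red cell markers were called lower for 3 of 3 tested, Alas2, Hbb-b1 and Hba-a1 (61.7 to 100 and 124 to 135 RPKM). After centring the counts lower were 7 of 8 endothelial, 5 of 6 adipocyte and 3 of 3 red cell markers. The adipocyte sums were mostly Fabp4, which was not called as deposited, at 128 to 183 RPKM in the knock-out and 140 to 200 RPKM in the wild type. Under the 4 alternative scalings Fabp4 was called lower (-0.36 after centring, limma adjusted p = 0.018), as was Adipoq. Cfd of that list had the opposite sign and was not called (52.5 RPKM in the knock-out, 39.6 RPKM in the wild type, log2 fold change 0.63, adjusted p = 0.18). No marker of the macrophage, endothelial and adipocyte lists was at 0 in a library. The part of these cells and fibres in the complex I values was not tested.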

How the data were processed

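The 9 libraries, 5 labelled Gaa knock-out and 4 labelled wild type, were made from total RNA of white gastrocnemius by Trizol extraction and TruSeq preparation, per the labels' protocols. The authors deposited 1 table of RPKM values, with 1 line per transcript and 1 column per library; per the submitters' processing notes the build was mm9 and the tools were Partek 6.6, Bowtie 0.12.7.0 and TopHat 1.3.2. The sources used here do not say how reads were counted, whether strand was used or how libraries were batched. The 23665 lines were summed to 18062 genes by symbol; of 37 symbols turned into dates 36 were restored by accession. Every value column was used.

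RPKM values are not counts, so log2(RPKM + 0.1), which understates the change of low genes, was tested in limma 3.58.1 under R 4.3.3 for genes averaging at least 0.5 RPKM (a two-sided test by lmFit and eBayes with trend) for the difference of knock-out and wild type, with Benjamini-Hochberg adjustment over 11032 genes and a threshold of 0.05. Depth was estimated from the step of 1 read in low values, of which 70.9% to 74.6% lay within 0.1 of a whole number of reads; this share was too low to recover counts. Libraries of each genotype differed by more than sampling noise (chi-square per gene 3.12 to 6.92 among knock-out and 4.13 to 15.9 among wild-type libraries), so none was counted as a second reading of another; whether any share an animal is not known. Transcript lengths, shared 50-base windows and overlapping exons came from GENCODE M21, which gave a length for 98.6% of tested genes, and promoters from RefSeq GRCm38.p6; no coordinates of the table's own build are given. The limma step was tested on simulated data. Other software was numpy 2.4.6, pandas 2.3.3, matplotlib 3.10.9 and scipy 1.17.1 under Python 3.11.15.

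The members, the other gene lists, the motifs and the rule for which members have every value printed (core subunits, Ndufa4, the 6 largest and 6 smallest log2 fold changes, and members whose sign centring turned; of other lists the genes with the smallest p) were chosen with earlier results of these data known, so lists are described by counts and medians with no list test. Of 164 symbols listed, 163 were in the table, 9 through an accession. Alternatives were other pseudocounts, filters and scalings, the most abundant line per gene, limma without trend, each library left out, and only wt1 and wt2 or only wt3 and wt4 as wild type.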

Additional observations from a re-analysis of the deposited data

Results flagged for a closer look

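In each genotype, the members were screened for a library far from the others of its group (70 groups), and 6 stood apart, where chance gives about 1 in 20. In 5 of the 6 it was wt3, above the other wild-type libraries: Ndufv1 had 142 RPKM in wt3 with 124 RPKM in the nearest of the others, Ndufa1 had 90.8 with 77.1 RPKM, Ndufa8 had 126 with 109 RPKM, Ndufb3 had 67.8 with 59.1 RPKM and Ndufb8 had 243 with 219 RPKM. The exception was in the knock-out, where Ndufc1 had 108 RPKM in ko5, below 118 RPKM in the nearest of the others. For Ndufa1 and Ndufb3, all knock-out values lay above wt3 as well. The library wt3 also had the largest estimated depth, 64300000 reads, and its part in these values was not tested.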

How the results depend on the processing

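Scaling moved these results most. The members called higher numbered 17 as deposited, 11 centred, 9 with equal totals, 6 with quantile normalization and 4 with the length trend removed, and those called lower 0, 4, 6, 10 and 12, with 2 against wt3 and wt4 alone. Their median log2 fold change was 0.17 as deposited and 0.04, 0.01, -0.04 and -0.08 under the 4 scalings in that order. Of all genes, 4081 were called higher as deposited, 2765 centred, 2432 with equal totals, 2644 with quantile normalization and 2694 with the length trend removed. Those called lower numbered 1632 as deposited, 2742 centred, 2814 with equal totals, 3056 with quantile normalization and 2625 with the length trend removed. Genes called higher in the other pathway lists (assembly factors, the other complexes, biogenesis and mass) numbered 32 as deposited, 17 centred, 17 with equal totals, 8 with quantile normalization, 5 with the length trend removed and 20 against wt3 and wt4 alone. The cause of these shifts was not tested.

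Fold changes that turned sign had these log2 values. Centred, Ndufv2 was at -0.04, Ndufs3 at -0.08, Ndufa10 at -0.07, Ndufc2 at -0.04, Ndufs5 at -0.03, Ndufb5 at -0.01, Ndufb6 at -0.10 and Ndufa4 at -0.09. With equal totals, Ndufv1 was at -0.03, Ndufv2 at -0.07, Ndufs3 at -0.11, Ndufs8 at -0.02, Ndufa9 at -0.01, Ndufa10 at -0.10, Ndufc2 at -0.07, Ndufs5 at -0.06, Ndufb5 at -0.04, Ndufb6 at -0.13 and Ndufa4 at -0.12. With quantile normalization, Ndufv1 was at -0.10, Ndufv2 at -0.13, Ndufs3 at -0.18, Ndufs7 at -0.07, Ndufs8 at -0.04, Ndufa9 at -0.08, Ndufa10 at -0.15, Ndufc2 at -0.11, Ndufs5 at -0.04, Ndufb2 at -0.04, Ndufb5 at -0.15, Ndufb6 at -0.19, Ndufb8 at -0.13, Ndufb10 at -0.01, Ndufb11 at -0.00 and Ndufa4 at -0.19. With the length trend removed, Ndufv1 was at -0.08, Ndufv2 at -0.11, Ndufv3 at -0.07, Ndufs6 at -0.03, Ndufs3 at -0.21, Ndufs7 at -0.04, Ndufs8 at -0.13, Ndufa9 at -0.07, Ndufa10 at -0.11, Ndufc2 at -0.21, Ndufs5 at -0.24, Ndufb2 at -0.17, Ndufb5 at -0.14, Ndufb6 at -0.28, Ndufb8 at -0.12, Ndufb9 at -0.04 and Ndufa4 at -0.28. Against wt1 and wt2 alone, Ndufs4 was at 0.03, Ndufa12 at 0.00 and Ndufc1 at 0.09, and against wt3 and wt4 alone Ndufa10 was at -0.05, Ndufc2 at -0.03, Ndufb6 at -0.06 and Ndufa4 at -0.02.

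With single libraries left out, 15 to 20 members were called higher and 0 to 1 lower (Ndufs1, without wt1), and log2 fold changes ran from -0.05 to 0.02 for Ndufa12, from -0.00 to 0.17 for Ndufs5 and from -0.01 to 0.08 for Ndufb6. Pseudocounts of 1 and 0.01, a filter of 1 RPKM and the most abundant line left every member's call as it was, although Ndufs6 moved to 0.55 with the most abundant line; with no filter Ndufb8 lost its call (adjusted p = 0.054) and Ndufb5 gained one (0.049), and limma without trend ended those of Ndufb8 and Ndufb2. No paired analysis was possible because the wild-type columns match no single numbered sample and nothing links numbers between genotypes. Levels rest on an estimated 89.7 reads or more per member and library, so depth limits Ndufs5 most.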
